A study of Mus musculus with 16 samples.

Results

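Branched-chain amino acid breakdown was followed in mouse skeletal muscle through 10 genes, chosen by symbol from the deposited expression table: Bcat2, Bckdha, Bckdhb, Dbt, Bckdk, Ppm1k, Ivd, Mccc1, Mccc2 and Hibadh. All 10 were among the 14538 genes of the table, and all 10 passed the minimum mean of 10 normalized counts that left 11841 genes for testing. RNA-seq had been made from the tibialis anterior, a fast hindlimb muscle, of 16 wild-type male C57BL/6 mice (labelled so, and C57BL/6J in the study's methods), with 1 library per mouse. The groups were 5 mice given vehicle, 6 mice given recombinant GDF15, a hormone that lowers food intake through the hindbrain receptor GFRAL, and 5 pair-fed mice given each day as much food as GDF15-treated mice had eaten on the previous day. All 3 groups were placed on a NASH diet, rich in fat and fructose, at 8 weeks of age, lived singly at about 29 °C, and were assigned to groups matched for body weight and composition. GDF15 was injected under the skin once each morning, and the labels list doses of 0.3, 1 and 5 nmol/kg without saying which was given to these 6 mice. The vehicle comparisons ask how muscle differed from that of freely feeding mice, and the comparison of GDF15 with pair-feeding asks what differed at matched food intake. Both vehicle comparisons use the same 5 vehicle-treated mice, and all 3 comparisons share groups, so they are not independent of each other.

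Leucine, isoleucine and valine are the amino acids whose breakdown begins mainly in muscle and not in liver. BCAT2, in mitochondria, moves their amino group to 2-oxoglutarate and leaves branched-chain keto acids, a reversible step. The branched-chain keto acid dehydrogenase complex then commits the carbon to oxidation. BCKDHA and BCKDHB form its decarboxylase and DBT its transacylase core, the kinase BCKDK switches the complex off by phosphorylating BCKDHA, and the phosphatase PPM1K removes that phosphate. Beyond the complex, IVD and the carboxylase formed by MCCC1 and MCCC2 belong to the leucine branch, and HIBADH to the valine branch. Much of the control of this pathway is by phosphorylation, which RNA does not measure.

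The promoters of 3 of the genes are shown because they stand at distinct points of the pathway: Bcat2 at its entry, Ppm1k with the largest fold change among the 10 genes, and Ivd with the smallest p-value. Each sequence is the 250 bases before an annotated RefSeq transcription start (GRCm38.p6), read 5′ to 3′ on the gene's strand. Capitals mark CACCC, the box bound by Krüppel-like factors, and CCAAT, the box bound by NF-Y, on either strand (GGGTG and ATTGG on the other).
Bcat2 (chr7:45569903-45570152, plus strand): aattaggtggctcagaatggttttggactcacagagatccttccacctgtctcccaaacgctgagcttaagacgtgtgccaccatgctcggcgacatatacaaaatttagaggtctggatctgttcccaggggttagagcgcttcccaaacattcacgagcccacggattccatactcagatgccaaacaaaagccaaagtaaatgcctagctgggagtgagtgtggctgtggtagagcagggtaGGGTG
Ppm1k (chr6:57535488-57535737, minus strand): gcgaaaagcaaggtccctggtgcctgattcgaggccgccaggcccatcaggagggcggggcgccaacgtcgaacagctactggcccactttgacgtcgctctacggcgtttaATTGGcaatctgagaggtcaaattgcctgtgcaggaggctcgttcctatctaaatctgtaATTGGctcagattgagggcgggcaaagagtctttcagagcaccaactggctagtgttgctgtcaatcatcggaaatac
Ivd (chr2:118861744-118861993, plus strand): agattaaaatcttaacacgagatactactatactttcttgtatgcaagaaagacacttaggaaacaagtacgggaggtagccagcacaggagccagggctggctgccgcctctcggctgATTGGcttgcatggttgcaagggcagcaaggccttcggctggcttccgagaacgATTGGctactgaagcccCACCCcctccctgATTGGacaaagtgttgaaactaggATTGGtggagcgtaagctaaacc
The Ivd window held 4 copies of CCAAT and 1 of CACCC, the Ppm1k window 2 copies of CCAAT and none of CACCC, and the printed Bcat2 window 1 CACCC, placed directly at the start. The window of a further Bcat2 start (chr7:45571029-45571278, plus strand), not printed, held neither box. RefSeq promoters were matched for 9 of the 10 genes, with 11 windows in all, and Dbt had none. CCAAT lay in 7 of these 11 windows (63.6%) and in 33.9% of all 32851 promoter windows of this length, and CACCC in 7 of 11 windows (63.6%) against 52.0%. CACGTG, the E-box, lay in 1 of 11 windows, that of Mccc2, against 6.02%, and AAGGTCA, the core of the site bound by oestrogen-related receptors, in 0 of 11 against 4.08%. These matches are letters in a window and were not tested.

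The 10 genes were spread over 6 chromosomes of GRCm38. Bckdha (chr7:25629946-25658981, minus strand), Bcat2 (chr7:45570153-45589711, plus) and Bckdk (chr7:127904082-127910221, plus) lay on chromosome 7. Ppm1k (chr6:57506502-57535468, minus) and Hibadh (chr6:52546228-52640389, minus) lay on chromosome 6. Dbt (chr3:116513070-116549981, plus) and Mccc1 (chr3:35959312-36000678, minus) lay on chromosome 3. Ivd was at chr2:118861954-118882909 (plus), Bckdhb at chr9:83925145-84124240 (plus) and Mccc2 at chr13:99948530-100015639 (minus). The exons of Bckdha shared 1171 bases with B3gnt8 on the opposite strand, a gene with a mean of 10.5 normalized counts against 2490 for Bckdha. Exons of Bcat2 and Mccc1 overlapped antisense or pseudogene models and those of Hibadh a small nucleolar RNA on its own strand, none of which had a row in the table. The library kit keeps strand, but how it was used in counting is not given in the sources used here, so these 4 genes carry that limit.

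By the steps between low values, the libraries held about 9511218 to 15057271 reads, and the least abundant of the 10 genes, Ppm1k, still had about 145 to 249 reads in each. Median depth was about 12148182 reads with GDF15, 13949577 with vehicle and 14306468 with pair-feeding. The shallowest libraries were GDF15 mice 4, 3 and 6, so depth and GDF15 treatment were partly confounded. Fast-fibre markers were abundant in every library, as their sum over Myh4, Myh1, Myh2, Acta1, Ckm and Tnnt3 of about 1843900 to 2238000 normalized counts shows. Within that sum, Myh1, the myosin of IIX fibres, had 131259 to 188359 normalized counts with vehicle, 113816 to 166367 with GDF15 and 77806 to 139363 with pair-feeding. It fell by 0.68 on the log2 scale with pair-feeding against vehicle (SE 0.14, limma adjusted p = 0.0123), a call kept under 30 of 30 alternatives. Ckm, muscle creatine kinase, rose by 0.15 ± 0.050 in that comparison (limma, adjusted p = 0.0997), a call kept under 11 of 30 alternatives. It was lost without any 1 of 12 mice (adjusted p from 0.0364 to 0.223, quantile normalization aside). Quantile normalization gives equal values to genes of equal rank, and it brought the fold change of Ckm to 1.07e-14, so that setting says nothing about Ckm. The 4 slow-fibre markers (Myh7, Tnnt1, Tnni1, Myl2) summed to 994 to 1715 normalized counts in 3 libraries, from GDF15 mouse 1 and pair-fed mice 3 and 6, and to 176 to 424 in the other 13. Markers of endothelium, blood, fat, nerve sheath, fibroblasts, macrophages and satellite cells were also present, each list summing to far less than the fast-fibre markers. The endothelial receptor gene Kdr was 783 ± 92.7 normalized counts (SD, n = 6) in GDF15-treated, 873 ± 110 (n = 5) in pair-fed and 1230 ± 72.5 (n = 5) in vehicle-treated mice, and fell by 0.66 (limma, adjusted p = 0.00116) and by 0.50 (adjusted p = 0.00473) on the log2 scale against vehicle. The summed endothelial markers were 3803 to 4533 with vehicle, 3143 to 3918 with GDF15 and 3317 to 4003 with pair-feeding. In whole muscle, fewer cells of a type and less RNA per cell cannot be told apart, and the part of these markers in any result below was not tested beyond leaving libraries out.

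Per kilobase of the principal transcript, Bckdha was the most abundant of the 10 genes and Ppm1k the least. Over the 16 libraries, levels were 1311 ± 123 normalized counts per kb (SD) for Bckdha, 1207 ± 84.0 for Hibadh and 897 ± 50.7 for Bckdk. Ivd followed with 612 ± 67.5 and Bcat2 with 532 ± 45.8 normalized counts per kb. Lower levels were those of Bckdhb (309 ± 21.4), Mccc1 (255 ± 10.9), Mccc2 (237 ± 20.3) and Dbt (151 ± 12.1), and Ppm1k had 35.2 ± 6.25 normalized counts per kb. The median over all tested genes was 67.4 normalized counts per kb, above Ppm1k and below the other 9 genes. The ranges over the 16 libraries overlapped in 4 of the 9 neighbouring pairs of this order: Bckdha and Hibadh, Ivd and Bcat2, Bckdhb and Mccc1, and Mccc1 and Mccc2. Within the last pair, the subunits of 1 carboxylase, Mccc1 was the higher in 14 of 16 libraries.

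**Figure D1:**
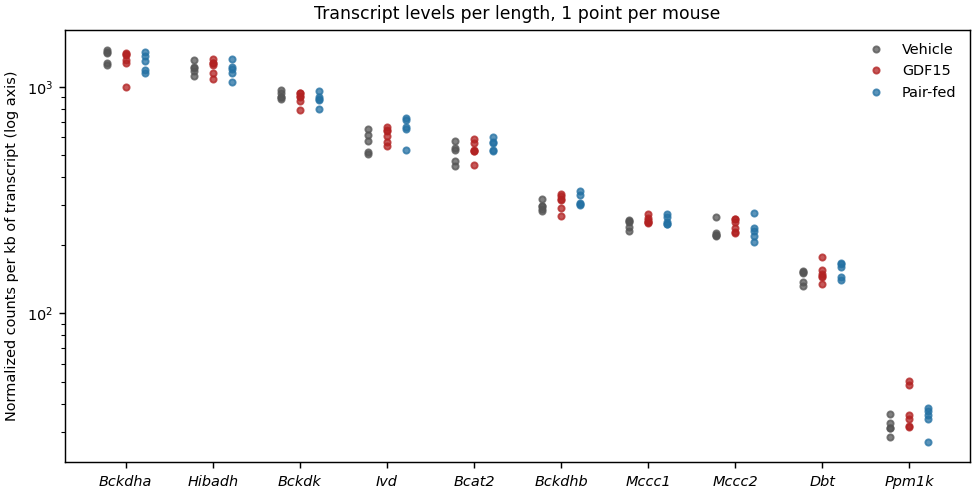
Normalized counts per kb of principal transcript on a log axis for each of the 10 genes, ordered by mean, with 1 point per mouse and the 3 groups side by side. Bckdha stands highest with a mean of 1311 and Ppm1k lowest with 35.2, and within each gene the 3 groups cover overlapping ranges.

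The transcripts of the dehydrogenase subunits did not have equal levels per kb. The ratios below depend on the length taken for each gene, that of its principal transcript, and protein was not measured. Per kilobase, Bckdha exceeded Bckdhb 4.59 ± 0.42-fold in vehicle-treated (SD, n = 5), 4.19 ± 0.64-fold in GDF15-treated (n = 6) and 4.05 ± 0.47-fold in pair-fed mice (n = 5). Bckdhb exceeded Dbt 2.05 ± 0.10-fold, 2.06 ± 0.16-fold and 2.06 ± 0.18-fold in the same order. The kinase transcript exceeded that of the opposing phosphatase in every library, with a Bckdk to Ppm1k ratio per kb of 28.9 ± 1.77 in vehicle-treated, 23.8 ± 4.42 in GDF15-treated and 26.0 ± 4.04 in pair-fed mice. The lowest ratio among vehicle-treated mice was 26.9 and the range with GDF15 was 17.3 to 28.2, so the groups overlapped.

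No difference between groups passed the test in any of the 10 genes. At an adjusted p under 0.1 and a log2 fold change over 0.6 in size (1.52-fold), 0 of 10 were called for GDF15 against pair-feeding, for GDF15 against vehicle and for pair-feeding against vehicle, where 0.279%, 0.304% and 0.819% of all tested genes were called (limma, Benjamini-Hochberg adjustment). At the adjusted p alone the counts were again 0 of 10 in each, against backgrounds of 2.17%, 0.769% and 6.37%. With backgrounds of this size, 0 of 10 is near the share of all genes. At an unadjusted p under 0.05, 0, 0 and 1 of the 10 genes passed in the same order, the 1 being Ivd, against 13.2%, 11% and 18.9% of all genes. In none of the 10 genes did the values of any pair of groups separate without overlap, as they did for 1.77%, 1.65% and 5.44% of all tested genes.

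The 95% intervals, taken gene by gene without adjustment, bounded the differences that remained possible. Standard errors of the 30 log2 fold changes lay between 0.045 and 0.13, and all 30 of the 95% intervals lay inside the threshold of 0.6 in either direction. In 26 of the 30 the interval lay inside 0.3, and the farthest bound was 0.52, or 43.1% higher, for Ppm1k with GDF15 against vehicle. The median log2 fold change of the 10 genes was 0.01 for GDF15 against pair-feeding, with 6 above 0 and 4 below, while that of all tested genes was 0.0025 with 50.8% above 0. Against vehicle it was 0.06 with GDF15, with 8 above 0 and 2 below, and 0.08 with pair-feeding, with 7 above 0 and 3 below, where the medians of all tested genes were 0.0008 and 0.0013, with 50.4% and 50.2% above 0. The coefficient of variation within a group ran over the 10 genes from 3.81% to 11.1% with vehicle (median 6.67%), from 3.15% to 21.6% with GDF15 (median 7.90%) and from 4.64% to 12.9% with pair-feeding (median 7.91%). The medians over all tested genes, which include genes of much lower counts, were 10.5%, 11.8% and 11.1%.

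**Figure D2:**
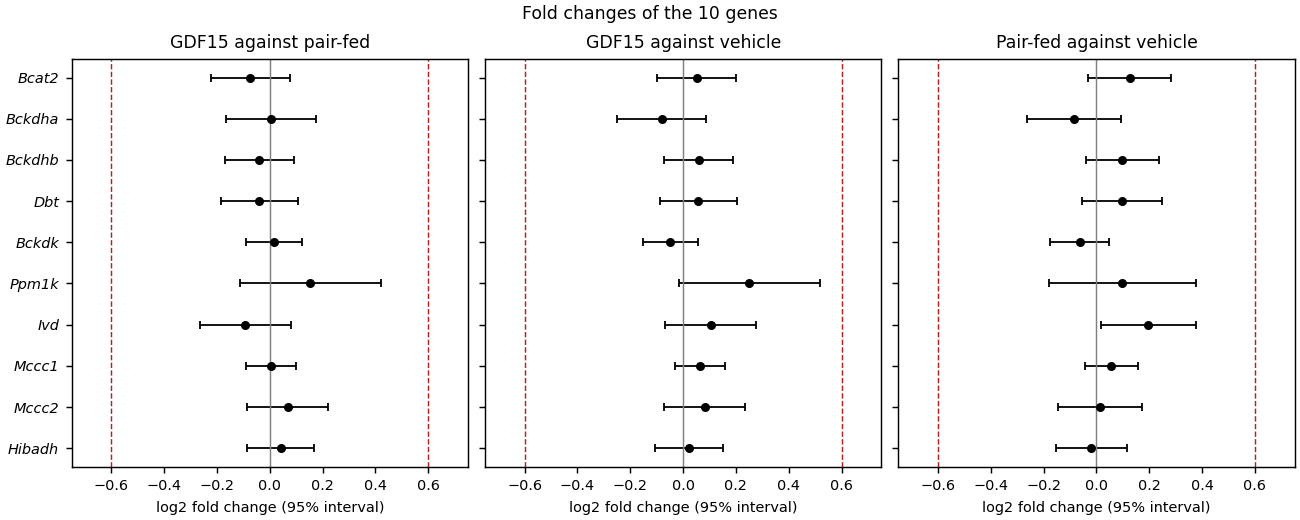
Log2 fold changes of the 10 genes (points) with 95% intervals (bars) in the 3 comparisons, with dashed lines at 0.6 in either direction. All 30 intervals lie inside the dashed lines, and 1, that of Ivd for pair-feeding against vehicle, excludes 0.

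Bcat2, the entry step, had 791, 936, 834, 949 and 1018 normalized counts in vehicle-treated mice 1 to 5. Pair-fed mice 2 to 6 had 927, 1007, 927, 1002 and 1064, and GDF15-treated mice had 801 to 1046 with a median of 927. Pair-fed mouse 6 lay above every vehicle-treated mouse, and the other 4 pair-fed mice lay within the vehicle range. The log2 fold change was 0.13 ± 0.074 (SE) for pair-feeding against vehicle (limma, adjusted p = 0.385), 0.05 ± 0.071 for GDF15 against vehicle (adjusted p = 0.855) and -0.07 ± 0.071 for GDF15 against pair-feeding (adjusted p = 0.696).

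Bckdha, the phosphorylated subunit of the dehydrogenase, had 2368, 2762, 2424, 2663 and 2705 normalized counts with vehicle and 2182, 2698, 2458, 2591 and 2260 with pair-feeding. With GDF15 it had 1886 to 2667 with a median of 2558. GDF15 mouse 1 was the low one with 1886, the next being 2415. That library had the highest slow-fibre sum. Pair-fed mouse 3, with the next highest, had the highest Bckdha of its group at 2698. Pair-fed mouse 6, with a slow-fibre sum of 994, had 2260, the lowest of its group but for mouse 2. The part of fibre type in these values was not tested. The log2 fold change for GDF15 against vehicle was -0.08 ± 0.081 (limma, adjusted p = 0.782) with all libraries and -0.01 with mouse 1 left out. For pair-feeding against vehicle it was -0.09 ± 0.084 (adjusted p = 0.637), and for GDF15 against pair-feeding 0.00 ± 0.081 (adjusted p = 0.990).

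Bckdhb, the partner of Bckdha, had 424, 438, 469, 440 and 416 normalized counts with vehicle, 488, 442, 447, 513 and 454 with pair-feeding, and 395 to 494 with a median of 468 with GDF15. Dbt, the core of the complex, had 438, 507, 495, 501 and 453 with vehicle, 479, 544, 463, 548 and 527 with pair-feeding, and 446 to 586 with a median of 488 with GDF15. For both genes the groups overlapped, with the highest libraries among the treated mice. Against vehicle, pair-feeding gave log2 fold changes of 0.10 ± 0.065 for Bckdhb and 0.10 ± 0.072 for Dbt (limma, adjusted p = 0.451 and 0.518), and GDF15 gave 0.06 ± 0.063 and 0.06 ± 0.069 (adjusted p = 0.799 and 0.825). Between GDF15 and pair-feeding both were -0.04 (adjusted p = 0.825 and 0.849).

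The kinase Bckdk had the highest count of the 10 genes and narrow groups. It had 3083, 3012, 3307, 3062 and 3200 normalized counts with vehicle, 2993, 3256, 3054, 2974 and 2725 with pair-feeding, and 2677 to 3210 with a median of 3079 with GDF15. Its lowest values were those of GDF15 mouse 1 and pair-fed mouse 6, while pair-fed mouse 3, the other slow-fibre-rich library, was the highest of its group. Its log2 fold changes were -0.05 ± 0.050 and -0.06 ± 0.053 against vehicle and 0.02 ± 0.050 between GDF15 and pair-feeding (limma, adjusted p = 0.794, 0.562 and 0.929).

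The phosphatase Ppm1k, which counters Bckdk, had the largest fold change of the 10 genes. Vehicle-treated mice had 173, 158, 201, 182 and 174 normalized counts, and pair-fed mice 150, 213, 190, 197 and 205. GDF15-treated mice 1 to 6 had 176, 198, 178, 268, 191 and 280. Mice 4 and 6 lay above every other library, while the other 4 lay within the vehicle range. The log2 fold change of GDF15 against vehicle was 0.25 ± 0.13 (95% interval -0.02 to 0.52, limma adjusted p = 0.483), or 19.0% higher, that against pair-feeding was 0.15 ± 0.13 (adjusted p = 0.646), and pair-feeding against vehicle gave 0.10 ± 0.13 (adjusted p = 0.749). With 1 library left out at a time, the value against vehicle ranged from 0.17 to 0.30, and that against pair-feeding from 0.07 to 0.20. Over all 30 alternatives the value against pair-feeding ran from 0.02 with depth as a covariate to 0.30 without the 3 slow-fibre-rich libraries, with adjusted p from 0.367 to 0.968. Over the same alternatives GDF15 against vehicle ran from 0.13 on the values as deposited to 0.30, and pair-feeding against vehicle from 0.0037 without the 3 slow-fibre-rich libraries to 0.18 without pair-fed mouse 2.

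In the leucine branch, Ivd came nearest to a call. It had 1882, 2236, 2389, 2107 and 1845 normalized counts with vehicle, 1932, 2660, 2376, 2608 and 2423 with pair-feeding, and 2005 to 2431 with a median of 2280 with GDF15. Pair-fed mice 3, 5 and 6 lay above all vehicle-treated mice, while pair-fed mouse 2 lay above vehicle mice 1 and 5 alone. Pair-feeding against vehicle gave a log2 fold change of 0.20 ± 0.085 (95% interval 0.02 to 0.38, or 14.6% higher), and limma gave it an unadjusted p = 0.0334 and an adjusted p = 0.219 over all tested genes. Without pair-fed mouse 2 it was 0.27 and passed the threshold (limma, adjusted p = 0.0725), and without the 3 slow-fibre-rich libraries it was 0.14 (adjusted p = 0.511). GDF15 gave 0.10 ± 0.082 against vehicle (adjusted p = 0.696) and -0.09 ± 0.082 against pair-feeding (adjusted p = 0.668).

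Mccc1 and Mccc2, the subunits of methylcrotonyl-CoA carboxylase, were even across groups. Mccc1 had 567 to 634 normalized counts with vehicle, 616 to 671 with GDF15 and 607 to 675 with pair-feeding, and its log2 fold changes were 0.06 ± 0.045, 0.06 ± 0.047 and 0.01 ± 0.045 for GDF15 against vehicle, pair-feeding against vehicle and GDF15 against pair-feeding (limma, adjusted p = 0.663, 0.567 and 0.972). Mccc2 had 564, 472, 480, 472 and 467 with vehicle, 438, 586, 506, 488 and 465 with pair-feeding, and 480 to 555 with a median of 521 with GDF15. Vehicle mouse 1 and pair-fed mouse 3 were the high libraries of their groups, and the 3 groups overlapped. In the same order its fold changes were 0.08 ± 0.073, 0.01 ± 0.076 and 0.07 ± 0.073 (adjusted p = 0.752, 0.949 and 0.732).

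Hibadh, the valine-branch dehydrogenase, had 2029 to 2392 normalized counts with vehicle, 1968 to 2417 with GDF15 and 1921 to 2413 with pair-feeding. The 3 ranges nearly coincided. Its log2 fold changes were 0.02 ± 0.061 and -0.02 ± 0.064 against vehicle and 0.04 ± 0.061 between GDF15 and pair-feeding (limma, adjusted p = 0.940, 0.911 and 0.816).

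**Figure D3:**
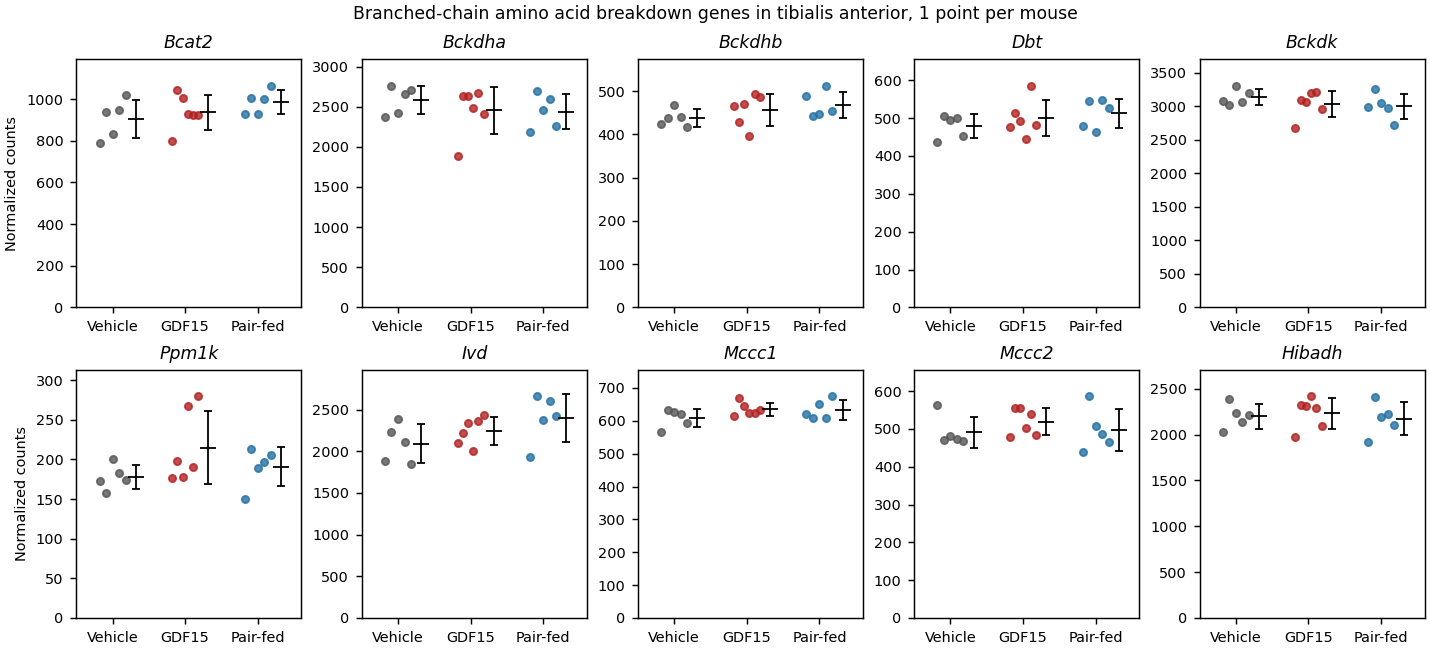
Normalized counts of each of the 10 genes, on axes that start at 0, with 1 point per mouse (5 vehicle, 6 GDF15, 5 pair-fed) and the group mean with its SD beside the points. The groups overlap in every panel, with Ppm1k high in 2 GDF15-treated mice at 268 and 280, and pair-fed Ivd running from 1932 to 2660.

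No pair of partner transcripts passed a test of correlation across mice. On log2 values with the group means removed, 5 pairs were correlated over the 16 libraries (two-sided permutation tests, 100000 resamples, adjusted over the 5 pairs). The largest were Bckdhb and Dbt (r = 0.495, permutation p = 0.0893, adjusted 0.336, rho = 0.438, p = 0.123, adjusted 0.307) and Bckdha and Dbt (r = 0.455, permutation p = 0.134, adjusted 0.336, rho = 0.582, p = 0.0324, adjusted 0.162). For the Bckdha and Bckdhb pair r was -0.113 (permutation p = 0.745, adjusted 0.745, rho = -0.118, p = 0.701, adjusted 0.701). Bckdk and Ppm1k gave r = 0.273 (permutation p = 0.407, adjusted 0.509, rho = 0.227, p = 0.445, adjusted 0.602), and Mccc1 and Mccc2 gave r = -0.260 (permutation p = 0.394, adjusted 0.509, rho = -0.206, p = 0.482, adjusted 0.602). Without the 2 libraries farthest from the median of the first gene, r was 0.217, 0.457, 0.042, 0.234 and -0.342 in the order given.

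The genes whose log2 values were most like those of Ivd over the 16 libraries, by Pearson's r among all tested genes, were Gja1 (r = 0.825), Ccpg1 (0.803), Zik1 (0.782), Gcdh (0.774) and Wbp2 (0.751). Gja1 encodes connexin 43, and Gcdh the glutaryl-CoA dehydrogenase of lysine and tryptophan breakdown, a relative of IVD. These are descriptions of the 16 libraries, which share groups and scaling.

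Of 22 further genes of the pathway, all in the table (the mutase under its symbol Mmut and not the older Mut), 20 were tested, and Bcat1, the cytosolic transaminase, and Hmgcll1 were below the minimum. For GDF15 against pair-feeding and against vehicle 0 of 20 passed the adjusted p (2.17% and 0.769% of all tested genes), though 1 fell against pair-feeding without GDF15 mouse 6 or without pair-fed mouse 3. For pair-feeding against vehicle 2 of 20 rose and 0 fell, where 6.37% of all tested genes passed, with a median log2 fold change of -0.05 over the 20. Of the 20 log2 fold changes 14 were below 0, with values down to -0.42, and 9 of 20 had an unadjusted p under 0.05, against 18.9% of all tested genes. That count depended on single libraries and on the fit, with 2 risen and 3 fallen without pair-fed mouse 3, 2 risen and 2 fallen without GDF15 mouse 1, and 1 risen and 0 fallen without any 1 of 8 other mice. It was 2 risen and 2 fallen with library quality weights, 1 and 2 with only the groups compared in the fit or without the 3 slow-fibre-rich libraries, 1 and 1 with a replicate block or quantile normalization, and 1 and 0 with no filter, no trend or depth as a covariate. Myh1 and Kdr fell in the same comparison, as given above, and their part in the calls of this and the following lists was not tested. Mmab, which makes the cofactor of methylmalonyl-CoA mutase in the propionate end of the pathway, had 616, 552, 533, 581 and 607 normalized counts with vehicle and 662, 651, 703, 690 and 707 with pair-feeding. These groups did not overlap, and the log2 fold change was 0.24 ± 0.052 (limma, adjusted p = 0.0178), or 18.2% higher. GDF15-treated mice had 573 to 652, overlapping both groups, with 0.07 ± 0.050 against vehicle (adjusted p = 0.634) and -0.17 ± 0.050 against pair-feeding (adjusted p = 0.128).

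Aldh6a1, the methylmalonate semialdehyde dehydrogenase of the valine branch, follows Hibadh in the pathway. It had 2502, 2864, 2630, 2723 and 2864 normalized counts with vehicle and 2808, 2902, 2983, 3126 and 3293 with pair-feeding, so that only pair-fed mouse 2 lay within the vehicle range. The log2 fold change was 0.15 ± 0.048 (limma, adjusted p = 0.0867), and the call was kept under 15 of 30 alternative settings. It was lost without vehicle mouse 1, 3 or 4, GDF15 mouse 2 or 3, or pair-fed mouse 4, 5 or 6, without the 3 slow-fibre-rich libraries, with a replicate block and under 5 other settings of the fit. The log2 fold change over the alternatives ranged from 0.12 to 0.18 and adjusted p from 0.0685 to 0.205.

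Of 6 genes that handle the amino group taken up by 2-oxoglutarate, 1 rose against vehicle in each treatment (0.769% of all tested genes passed with GDF15 and 6.37% with pair-feeding). Glul, glutamine synthetase, which stores that nitrogen as glutamine, had 2137, 1672, 1805, 1817 and 1620 normalized counts with vehicle and 2865, 4578, 2263, 4404 and 4680 with pair-feeding. GDF15-treated mice had 2997 to 4641 with a median of 3616. Every treated mouse lay above every vehicle-treated mouse, and the log2 fold changes were 1.02 ± 0.16 with GDF15 (limma, adjusted p = 0.00841) and 1.00 ± 0.17 with pair-feeding (adjusted p = 0.00426). Between the 2 treated groups it was 0.02 ± 0.16 (95% interval -0.33 to 0.36, adjusted p = 0.980). The transaminases Gpt, Gpt2, Got1 and Got2 and the dehydrogenase Glud1 did not pass in any comparison, though for pair-feeding against vehicle 1 of them fell without pair-fed mouse 3, without pair-fed mouse 4 or with a replicate block, and for GDF15 against pair-feeding 1 rose with a replicate block.

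Among 8 regulators of oxidative or amino acid metabolism, 1 rose and 1 fell with pair-feeding against vehicle (background 6.37%), and 0 passed in the comparisons with GDF15, save 1 that rose against vehicle without the 3 slow-fibre-rich libraries. Klf15, a Krüppel-like factor known to drive branched-chain amino acid breakdown genes in muscle, had 603, 600, 510, 546 and 540 normalized counts with vehicle and 694, 875, 694, 746 and 822 with pair-feeding. The groups did not overlap, and the log2 fold change was 0.45 ± 0.089 (limma, adjusted p = 0.0119), or 36.5% higher. With GDF15 Klf15 had 598 to 850 with a median of 669, and 0.31 ± 0.086 against vehicle (adjusted p = 0.153). The 95% interval for GDF15 against pair-feeding was -0.32 to 0.04 (adjusted p = 0.503). In the same pair-fed mice Bcat2, a known target of KLF15, had the 0.13 ± 0.074 given above. Ppara, a receptor that drives fatty acid oxidation genes, fell by 0.84 on the log2 scale with pair-feeding (SE 0.22, adjusted p = 0.0409), from 62.7 to 89.1 normalized counts with vehicle to 26.3 to 64.6. The ranges of Ppara overlapped through pair-fed mouse 3, and the call was lost without vehicle mouse 5 or without pair-fed mouse 5, with adjusted p up to 0.104. Over the 30 alternatives its value ran from -1.02 without the 3 slow-fibre-rich libraries to -0.23 on the values as deposited, a scale that shrinks the differences of low genes.

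The sister complexes, pyruvate and 2-oxoglutarate dehydrogenase with their kinases and phosphatases, share the architecture of the branched-chain complex. Of 12 tested genes 0 passed in the GDF15 comparisons, and 1 fell with pair-feeding against vehicle, where 6.37% of all tested genes passed. In that comparison 9 of 12 were below 0 (median -0.11), and 9 of 12 had an unadjusted p under 0.05, against 18.9% of all tested genes. The number fallen was 3 without pair-fed mouse 4, 2 without pair-fed mouse 3 or GDF15 mouse 1, and 0 without pair-fed mouse 5 or 6, and with quantile normalization 3 fell and 1 rose. Pdpr, the regulatory subunit of pyruvate dehydrogenase phosphatase, had 845, 707, 739, 741 and 698 normalized counts with vehicle and 625, 634, 686, 553 and 553 with pair-feeding. It fell by 0.29 on the log2 scale (SE 0.075, limma adjusted p = 0.0409) with no overlap, and the call was lost without pair-fed mouse 5 or 6 and with a replicate block (adjusted p up to 0.114). With GDF15 the value was -0.26 ± 0.072 (adjusted p = 0.153), also with no overlap.

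Of 8 genes for leucine entry and sensing, 1 fell in GDF15-treated against pair-fed mice (background 2.17%). Sesn1, a leucine sensor that restrains mTORC1, had 385, 478, 415, 439 and 492 normalized counts with pair-feeding, 308 to 392 with GDF15 and 332 to 439 with vehicle. It fell by 0.36 on the log2 scale with GDF15 against pair-feeding (SE 0.082, limma adjusted p = 0.0486), and the call was lost without GDF15 mouse 4, without pair-fed mouse 5 or pair-fed mouse 6, without the 3 slow-fibre-rich libraries and with depth as a covariate (adjusted p up to 0.240). The value ran from -0.41 without pair-fed mouse 2 to -0.24 without the 3 slow-fibre-rich libraries and -0.22 on the values as deposited. The log2 values of Sesn1 were 0.20 ± 0.086 with pair-feeding against vehicle (adjusted p = 0.216) and -0.16 ± 0.082 with GDF15 against vehicle (adjusted p = 0.493).

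Against vehicle, 1 of the same 8 genes rose with GDF15 (background 0.769%). Slc7a8, a light-chain transporter for large neutral amino acids, had 183, 149, 165, 159 and 158 normalized counts with vehicle and 197 to 258 with GDF15, with no overlap. It rose by 0.51 ± 0.11 (limma, adjusted p = 0.0461), and the call was lost without vehicle mouse 2 or 5 or GDF15 mouse 4 or 6, with a replicate block and with depth as a covariate (adjusted p up to 0.192). Its value ran from 0.25 on the values as deposited to 0.55 without GDF15 mouse 1. With pair-feeding 0 of 8 passed, and 1 rose under 8 alternatives, among them without vehicle mouse 1, GDF15 mouse 1 or pair-fed mouse 4 or 6. There Slc7a8 was at 0.34 ± 0.11 (adjusted p = 0.105).

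The citric acid cycle enzymes, which share the mitochondrial matrix with the 10 genes, did not pass the adjusted p in any comparison (0 of 14) with all libraries. The shares of all tested genes that passed were 2.17% for GDF15 against pair-feeding, 0.769% for GDF15 against vehicle and 6.37% for pair-feeding against vehicle. For pair-feeding against vehicle, 4 of 14 fell without pair-fed mouse 3, 2 fell with quantile normalization and 1 fell under 9 other alternatives, among them without vehicle mouse 4, GDF15 mouse 1, 2 or 3, or pair-fed mouse 4. All-gene calls in that comparison went from 754 with all libraries to 1048 without pair-fed mouse 3 and 823 with quantile normalization. In that comparison Fh1, fumarase, named after its values were seen, was the nearest to a call (-0.16 ± 0.053, limma adjusted p = 0.103), and 6 of 14 had an unadjusted p under 0.05, against 18.9% of all tested genes. Their log2 fold changes were below 0 in 14 of 14 genes for pair-feeding against vehicle (median -0.12) and in 13 of 14 for GDF15 against vehicle (median -0.08). In the same comparisons the medians of the 10 branched-chain genes were 0.08 and 0.06. For GDF15 against pair-feeding 13 of 14 cycle genes were above 0 (median 0.04). Over the 3 comparisons, the smallest unadjusted p-value of the 14 genes belonged to Suclg1, for GDF15 against vehicle. Suclg1 codes for a subunit of succinyl-CoA synthetase, which receives the carbon of valine and isoleucine. It had 4340 to 4660 normalized counts with vehicle and 3819 to 4316 with GDF15 (-0.14 ± 0.045, limma adjusted p = 0.230). The 2 lists were set side by side as a description and their difference was not tested.

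**Figure D4:**
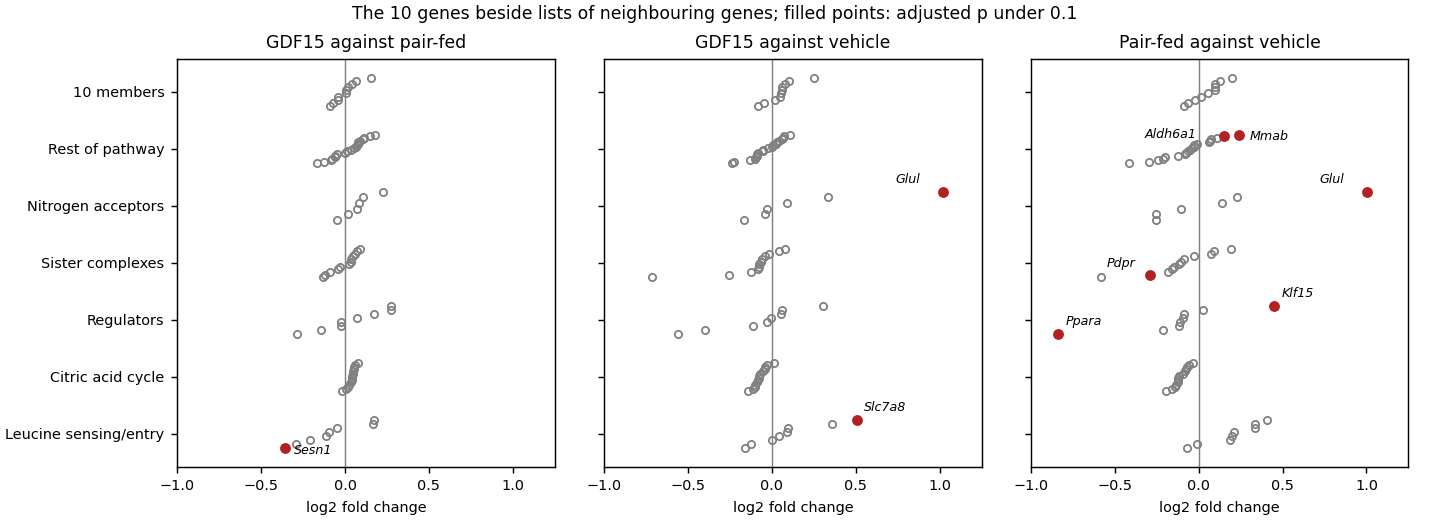
Log2 fold changes of each tested gene (1 point per gene) in the 10 branched-chain genes and 6 further lists, for the 3 comparisons, with genes past an adjusted p of 0.1 filled and named. The 10 genes lie close to 0 in each panel with none filled, while Glul lies near 1 in both comparisons with vehicle.

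**Figure D5:**
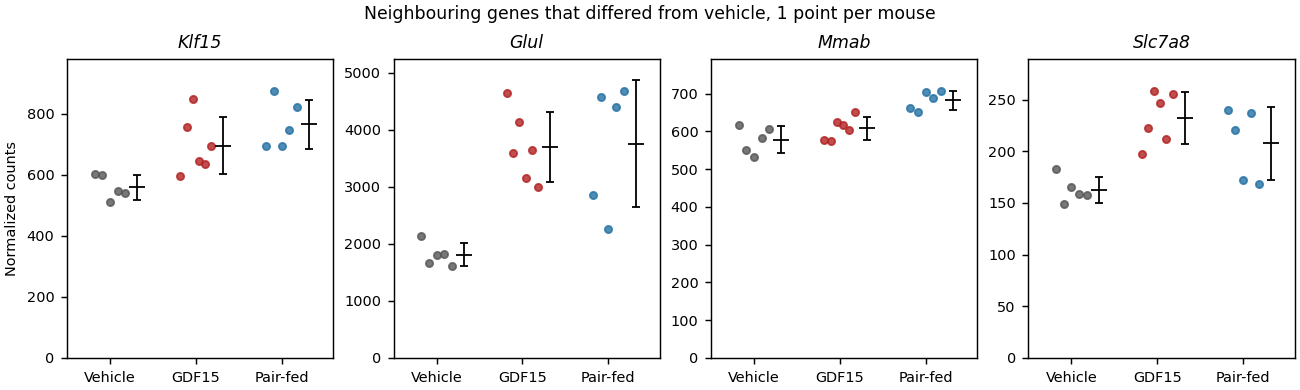
Normalized counts of Klf15, Glul, Mmab and Slc7a8, on axes that start at 0, with 1 point per mouse and the group mean with its SD. Pair-fed mice lie above vehicle-treated mice without overlap for Klf15, Glul and Mmab, and GDF15-treated mice do for Glul and Slc7a8.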

How the data were processed

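RNA-seq libraries of tibialis anterior from 16 mice (5 vehicle, 6 GDF15, 5 pair-fed) were made with a kit that keeps strand. The authors used Trim Galore for trimming, Salmon for transcript abundance and DESeq2 for scaling. The submitters' notes give mm10, and versions and annotation are not given in the sources used here. The authors deposited log2 values from the variance stabilizing transformation, which were transformed back to normalized counts. Transforming again gave the deposited values within 8.88e-16. In genes with 1 transcript, low values were near whole reads, but not in genes with many, so count tests were not run and depth is approximate.

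Tests covered 11841 genes, those averaging 10 or more normalized counts. After adding 1 and taking log2, limma 3.58.1 (R 4.3.3) was fitted to the 3 groups with a trend and no covariate, and two-sided p-values were adjusted by Benjamini-Hochberg over all of them. Fold changes are on this scale. Python 3.11.15 with scipy 1.17.1 did the rest, and the fit was tested on simulated data. Calls used an adjusted p under 0.1 with and without a log2 fold change over 0.6, as in the paper's thresholds for this muscle. Same-group libraries correlated at 0.978 to 0.986, and no pair was identical. Positions and lengths are from GENCODE vM21, and lengths are those of the APPRIS principal transcript. The genes and lists were chosen with earlier results of these data known. All 10 genes were named, then every gene of the further lists and of the cell type markers past the adjusted p, and in a list of pathway genes without one the gene with the smallest p. The replicate numbers name different animals, and the labels do not say whether same-numbered animals were matched, so no pairing was used in the main fit. Alternatives changed pseudocount, filter, scaling, fit and libraries.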

Additional observations from a re-analysis of the deposited data

Results flagged for a closer look

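In 66 groups of 5 or 6 mice, examined for a mouse far from the others of its group, 6 stood apart by Dixon's criterion, a number to be set against the roughly 1 in 20 groups that chance gives. Among the 10 branched-chain genes these were Bckdha in GDF15 mouse 1, the lowest at 1886 normalized counts with the next at 2415, and Mccc2 in vehicle mouse 1, the highest at 564 with the next at 480. Among the further genes, Pdpr was highest in vehicle mouse 1 (845, next 741) and Ppara was highest in GDF15 mouse 5 (72.9, next 48.6). The endothelial gene Kdr was lowest in vehicle mouse 1 (1102, next 1237) and highest in pair-fed mouse 4 (1065, next 867). GDF15 mouse 1 was also the library with the highest slow-fibre sum (1715). Pair-fed mouse 3, with a slow-fibre sum of 1565, had the highest Bckdha of its group (2698). Pair-fed mouse 6, with a sum of 994, had 2260, the lowest of its group but for mouse 2. The part of fibre type was not tested.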

How the results depend on the processing

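Each of the 30 log2 fold changes of the 10 genes was recomputed under 30 alternatives. Of 900 values 873 kept their direction, the largest size was 0.30, and 1 passed the adjusted p, so that 179 of 180 counts of called genes were 0. The exception was 1 gene, Ivd, for pair-feeding against vehicle without pair-fed mouse 2. With a replicate block 0 of the 10 genes were called in each comparison, and all-gene counts at the adjusted p alone were 190, 38 and 520 in place of 257, 91 and 754. Over all alternatives these counts ranged from 66 to 372, 31 to 112 and 406 to 1048, and with the fold threshold from 7 to 62, 9 to 47 and 17 to 157, where 33, 36 and 97 were called. Deviations of same-numbered mice from their group means correlated at -0.0994 to 0.0665. These values cannot tell whether such mice were matched for food or handled together.

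In 10 of the 30 fold changes some alternative turned the sign, and the cause was not tested. With log2 depth as a covariate these were Bckdha (-0.017) and Bckdk (-0.0070) for GDF15 against pair-feeding and Hibadh (-0.0033) for GDF15 against vehicle. With the 3 slow-fibre-rich libraries left out, chosen after seeing the data, they were Bcat2 (0.019) and Dbt (0.019) for GDF15 against pair-feeding and Mccc2 (-0.039) for pair-feeding against vehicle. With 1 library left out at a time, values for GDF15 against pair-feeding ranged from -0.035 to 0.078 for Bckdha, -0.063 to 0.00072 for Bckdhb, -0.018 to 0.051 for Bckdk, -0.0096 to 0.030 for Mccc1 and -0.0026 to 0.080 for Hibadh. For Hibadh with GDF15 against vehicle they ranged from -0.0073 to 0.057, and for pair-feeding against vehicle from -0.048 to 0.064 for Mccc2 and -0.058 to 0.024 for Hibadh. The correlation of Bckdha and Bckdhb was 0.042 without the 2 libraries farthest from the median. Nothing here bears on protein, phosphorylation or flux, and changes smaller than the intervals given could not be seen with 5 or 6 mice a group.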
